A study of Mus musculus with 12 samples.

Results

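Chromosome 4 outside 3 short windows was followed through 11 mouse tumours by array comparative genomic hybridisation. The members were every probe that the array files place on chromosome 4, except those at 61.9 to 62.4 Mb (around Alad), 87.3 to 90.0 Mb (around Cdkn2a) and 111.5 to 112.3 Mb (the Skint cluster), in build mm9. This left 2426 of 42404 probes, reaching from position 3377972 to 155559340, with a median spacing of 21.2 kb. A gene name was attached to 2112 of them, giving 1191 genes, of which 514 had 1 probe. The tumour cells were cultures of malignant peripheral nerve sheath tumours (MPNST) from mice carrying the P0-GGFβ3 transgene, in which the P0 promoter drives a neuregulin-1 isoform in Schwann cells. The mixed group, C57BL/6J x SJL/J, held 7 tumours (A394, A390, A382, A292, A202, A18 and 231 Trig), and the C57BL/6J group held 4 (B86, B91, B96 and B76). The reference on every array was DNA of cultured non-neoplastic Schwann cells of wild-type C57BL/6J mice, so SJL/J alleles occur on the tumour side alone. Titles give passages 5 to 13, with none for 231 Trig. There were 12 arrays for 11 tumours, because A382 had an array each for passages 8 and 9, whose values were averaged.

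MPNST are cancers of the Schwann cell lineage, the glia that wrap peripheral nerve axons, and they are known for chromosome-scale gains and losses. Mouse chromosome 4 is a single-armed chromosome whose distal end matches part of the short arm of human chromosome 1, where several tumour suppressor genes lie. On these arrays DNA from tumour cells (Cy5) and from reference cells (Cy3) competed for the same probe. Each value is the log2 ratio of tumour over reference after the array's autosomal median was set to 0. A lone copy in every tumour cell against a pair in the reference would give a log2 ratio of -1 if the tumour were otherwise diploid. Ploidy and the share of tumour cells were not measured, so a smaller shift cannot be turned into copies. All arrays used the same dye orientation, so a probe-specific dye effect and a tumour effect cannot be told apart.

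The 4 arrays of slide 1 (A18, 231 Trig, A202 and B86) were read on a different scanner from the other 8. Their median tumour signal was 488 to 600, against 912 to 1197 on slides 2 and 3, and the SD of neighbouring probes was 0.20 to 0.25 on slide 1, against 0.18 to 0.21. On each array 99.4% or more of the probes exceeded background in both dyes. Precision is limited by how many arrays there are.

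Probes under 6 gene or cDNA names carry the focal results below. They are printed 5′ to 3′ as the array files give them, in lower case because no base within them was singled out. The files name no strand, and no mm9 annotation was used here, so no probe is placed in an exon or intron. The low Mob3b probe and the first Rusc2 probe separate some mixed tumours from the rest. The Atg4c probes lie in a short high stretch of A202, a Dhdds probe was low in every tumour, and the Trp73 and AK202125 probes lie near the distal end.
Mob3b, neighbouring probe, chr4:35100418-35100477: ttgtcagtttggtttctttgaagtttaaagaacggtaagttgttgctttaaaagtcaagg
Mob3b, low probe, chr4:35100907-35100966: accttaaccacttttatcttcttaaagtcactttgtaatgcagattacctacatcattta
Rusc2, first probe, chr4:43416166-43416225: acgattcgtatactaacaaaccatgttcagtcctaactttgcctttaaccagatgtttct
Rusc2, middle probe, chr4:43426889-43426948: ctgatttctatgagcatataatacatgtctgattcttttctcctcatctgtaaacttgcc
Rusc2, last probe, chr4:43435559-43435613: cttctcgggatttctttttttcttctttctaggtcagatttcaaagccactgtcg
Atg4c, first probe, chr4:98862355-98862414: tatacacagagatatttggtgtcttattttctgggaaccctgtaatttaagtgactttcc
Atg4c, second probe, chr4:98925571-98925630: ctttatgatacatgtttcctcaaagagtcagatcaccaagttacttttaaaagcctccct
Dhdds, neighbouring probe, chr4:133526471-133526530: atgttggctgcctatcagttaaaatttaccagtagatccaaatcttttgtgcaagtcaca
Dhdds, low probe, chr4:133536539-133536598: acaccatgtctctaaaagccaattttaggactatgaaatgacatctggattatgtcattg
Trp73, chr4:153476154-153476213: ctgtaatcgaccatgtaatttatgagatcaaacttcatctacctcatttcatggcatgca
AK202125, last probe, chr4:155213582-155213630: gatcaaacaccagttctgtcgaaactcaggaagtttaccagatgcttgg

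The chromosome lay slightly below the autosomal median in all 11 tumours, and far below it in A202 only. Chromosome 4 medians in the mixed tumours were -0.080 in A18, -0.029 in 231 Trig, -0.33 in A202, -0.088 in A390, -0.028 in A292, -0.023 in A382 and -0.041 in A394. In the C57BL/6J tumours they were -0.061 in B86, -0.092 in B91, -0.061 in B96 and -0.099 in B76. A202 stands alone, and the remaining mixed tumours span the same range as the C57BL/6J tumours or lie nearer 0. The mean over tumours was -0.085 ± 0.086 (SD, n = 11). A two-sided exact sign-flip permutation test gave p = 0.000977, the smallest it can give, and an adjusted p of 0.00371 over the 19 autosomes. Without A202 the mean was -0.060 ± 0.029 (SD, n = 10), with an adjusted p of 0.00742 by the same exact test. Of the 19 autosomes, 5 passed with a lower median, which is 26.3% of them, so a small shift below 0 was shared by several chromosomes. Centring each array on the mode of its ratios gave -0.057 (adjusted p = 0.0297, exact sign-flip test), and centring without chromosome 11, the most gained autosome, gave -0.060.

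**Figure D1:**
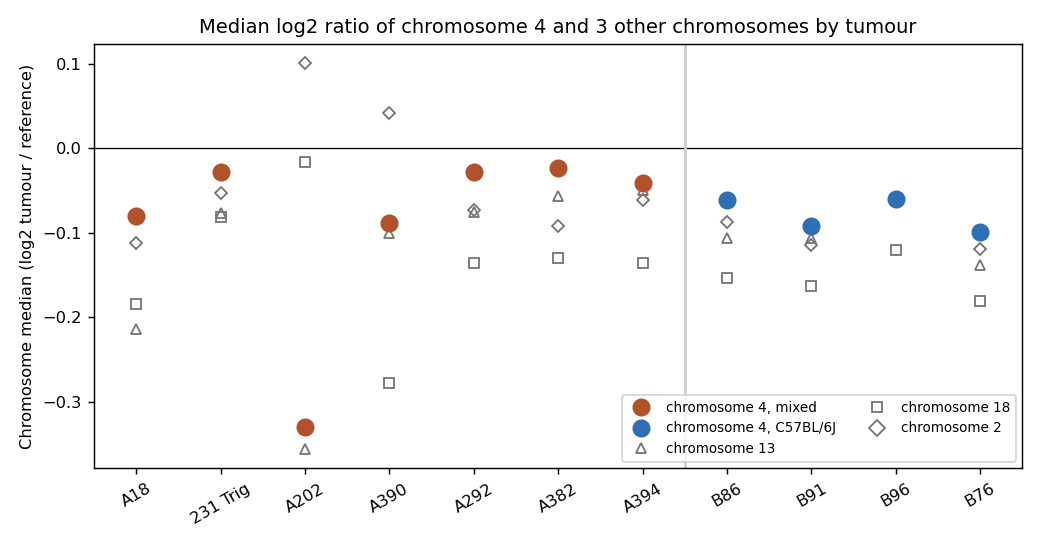
Median log2 ratio of tumour over reference for chromosome 4 (filled circles) and for chromosomes 13, 18 and 2 (open symbols), with the 7 mixed tumours left of the 4 C57BL/6J tumours. Chromosome 4 lies between -0.099 and -0.023 in 10 tumours and at -0.33 in A202, and it stands above chromosome 13 in all 11.

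The level was close to that of other slightly low chromosomes. Chromosomes 13 and 18 were chosen as slightly low and chromosome 2 as stable, with earlier results of these data known. Chromosomes 18 and 13 had the lowest means of the 19 autosomes (-0.14 and -0.12), so standing above them partly restates that choice. Chromosome 4 was above chromosome 13 in 11 of 11 tumours, by 0.037 ± 0.036 (SD, n = 11), with an adjusted p of 0.00293 over 3 comparisons in the exact sign-flip test. In B96 the medians were nearly equal, at -0.0608 and -0.0615, whereas in A18 they were -0.080 and -0.21. Against chromosome 18 the mean difference was 0.059 ± 0.13 (SD, n = 11), above 0 in every tumour but A202, where chromosome 18 was at -0.016. That comparison did not pass (adjusted p = 0.240, exact test), but without A202 the difference was 0.096 and passed (adjusted p = 0.00293, exact test). The difference from chromosome 2 was -0.027 ± 0.14 (SD, n = 11) and did not pass (adjusted p = 0.749, exact test). It rested on A202, where chromosome 2 was at 0.10, and it was 0.013 without that tumour. In A202 itself chromosome 4 had rank 4 from the lowest among the 19 autosomes. Segments called as losses (defined below) held 30.6% of autosomal probes in A202, so the low chromosome 4 was part of a broader set of losses.

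Each dye channel was also read on its own, after adjustment for probe GC content. The reference channel on chromosome 4 lay between -0.012 and 0.033 over the 12 arrays, while the tumour channel lay between -0.32 and -0.030. In A202 the tumour channel was at -0.32 and the reference channel at 0.029, so the low ratio came with low tumour signal.

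The strain backgrounds did not differ in level beyond their spread. The chromosome 4 median averaged -0.089 ± 0.11 in mixed tumours (SD, n = 7) and -0.078 ± 0.020 in C57BL/6J tumours (SD, n = 4). The difference, mixed minus C57BL/6J, was -0.010, with p = 0.970 in a two-sided exact permutation test (330 splits of the tumours) and an adjusted p of 0.970 over the autosomes. No autosome passed this comparison, a share of 0%. Its sign depended on A202: without that tumour it was 0.030 (adjusted p = 0.434, exact permutation test). Within slides the difference was -0.085 on slide 1, which holds A202, 0.044 on slide 2 and 0.047 on slide 3, with 1, 1 and 2 C57BL/6J arrays on those slides.

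Along the chromosome the profile was nearly flat in most tumours. Of 29 windows of 5 Mb with at least 20 probes, 12 were lower than the reference by limma (adjusted p below 0.05, mean -0.1 or less) and 0 were higher. Over all autosomes 14.9% of windows passed as lower and 12.5% as higher. The 145 to 150 Mb window had the lowest mean, -0.15 ± 0.085 (SD, n = 11, limma adjusted p = 0.00405), and was below 0 in 11 of 11 tumours. It carries 96 probes, among them those of the neuronal motor gene Kif1b and of Mtor, the kinase at the centre of nutrient and growth signalling. The 40 to 45 Mb window, with the Cntfr and Rusc2 probes among its 141, was at -0.12 ± 0.083 (SD, n = 11, limma adjusted p = 0.0138), also below 0 in every tumour. At the other end of the scale, the sparsely covered 65 to 70 Mb window was at -0.011 ± 0.13 (SD, n = 11), with 20 probes. The count of lower windows rested on A202 and on the centring: it was 1 without A202, 1 after centring on the mode and 1 after centring without chromosome 11. Without A202, 16 windows still passed limma's adjusted p when no minimum size was asked for.

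**Figure D2:**
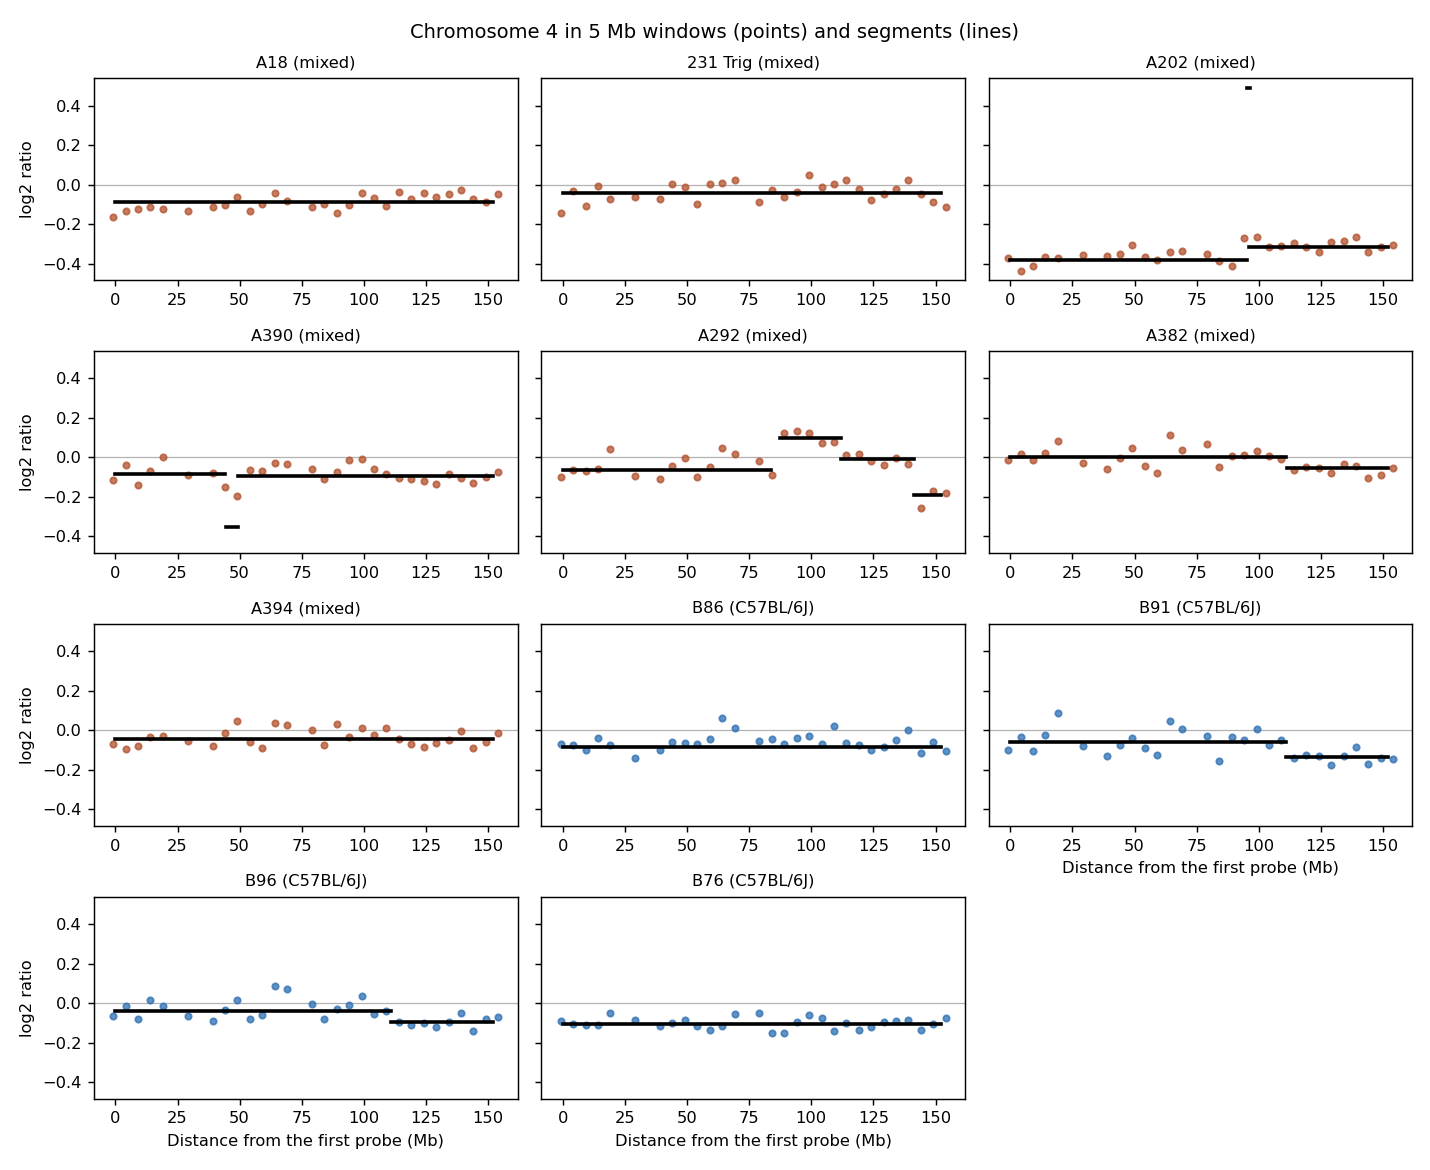
Median log2 ratio of 5 Mb windows (points) and mean log2 ratio of segments (black lines) along chromosome 4 for each tumour, against distance from the first probe in Mb. The 224 kb segment of A202 at 0.49 is drawn wider than scale so that it can be seen, and the low level of A202, the dip of A390 and the steps of A292 stand out from the flat profiles of A18, 231 Trig, A394, B86 and B76.

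The proximal and distal sets of probes, each of 1213 and divided at position 109655966, did not differ beyond the spread between tumours. The proximal minus distal difference was 0.017 ± 0.041 (SD, n = 11) and above 0 in 8 of 11 tumours, with an adjusted p of 0.239 in the exact sign-flip test. By the same test 57.9% of the autosomes passed. Without slide 1 the difference was 0.040 and passed (adjusted p = 0.0330, exact test). The tumours with the highest difference were B91 at 0.073, B96 at 0.063 and A382 at 0.061, and the lowest were A202 at -0.047 and A18 at -0.046.

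Breaks were found by penalised least squares, and a segment was called a loss or gain at a mean of at most -0.2 or at least 0.2. There were 10 breaks in all, and 5 tumours (A18, 231 Trig, A394, B86 and B76) had none. Losses were called in A202 and A390 and a gain in A202, and the other 9 tumours had no called segment on chromosome 4. Called losses covered 99.7% of the probes in A202 and 2.23% in A390. Over all tumours and autosomes 6.95% of probe values lay in called losses, and in A390 alone 15.8% did. With 1 array or an average of 2 per tumour, segments have no replicate check. Each segment was delimited from its own tumour's values, so setting that tumour against the others over the same probes partly restates that selection.

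A202 was low along its whole length apart from a short stretch. Its ratio was -0.38 over the 960 probes from 3377972 to 98700003 and -0.31 over the 1418 probes from 99325169 to 155559340. Between them, 7 probes from 98831985 to 99056193, a stretch of 224 kb, averaged 0.49 ± 0.25 (SD over probes). That is 0.82 above the tumour's own chromosome 4 median. The stretch holds Atg4c, which encodes a protease of the autophagy pathway, and the cDNAs AK089333 and AK046412. All 7 probes were higher in A202 than in any other tumour. The first Atg4c probe printed above read 0.38 in A202, against -0.26 to 0.045 in the other 10 tumours, and the second read 0.79, against -0.19 to 0.20. On the distal side, Foxd3, a transcription factor of the neural crest from which Schwann cells derive, was in the low segment. In A202 the tumour channel over the stretch was at -0.28 and the reference channel at -0.59. Relative to their own chromosome 4 medians the other 10 tumours lay between -0.21 (B96) and 0.11 (A292) over the same probes, so no other tumour showed a rise of that size. The stretch was returned with the same ends under all 8 segmentation settings tried.

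A390 had a single dip against an otherwise even chromosome. From 47962006 to 52868823, over 4.91 Mb and 54 probes, its mean was -0.35 ± 0.15 (SD over probes), against -0.083 on the proximal side and -0.094 on the distal side. The other mixed tumours read -0.15 (A18), -0.064 (231 Trig), -0.38 (A202), -0.022 (A292), 0.048 (A382) and 0.019 (A394) over the same probes. The C57BL/6J tumours read -0.099 (B86), 0.017 (B91), 0.013 (B96) and -0.11 (B76). Only A202, low throughout, reached the level of A390, and measured from its own chromosome median A202 was at -0.050 there, against -0.26 for A390. A390 was the lowest of the 11 tumours at 36 of the 54 probes, measured the same way. In A390 the tumour channel of the dip was at -0.69 and the reference channel at -0.26. Over the other 10 tumours the reference channel ranged from -0.34 to -0.12 there.

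The dip spans 24 named genes. For 18 of them A390 lay outside the range of the other 10 tumours once each tumour's chromosome median was subtracted. The dip was delimited because A390 was low there, so this count and that of its lowest probes partly restate that selection. At its proximal end is Nr4a3, an orphan nuclear receptor, at -0.26 in A390, against a median of -0.097 over the other tumours. Plppr1, a neuronal membrane protein gene, read -0.25 in A390, against -0.19 to 0.28 in the others. The olfactory receptor gene Olfr273 at the distal end read -0.32 in A390, against -0.21 to 0.33. For Smc2, a condensin subunit needed to compact chromosomes in mitosis, A390 was at -0.25, inside the range of the others. The dip was found under 7 of 8 segmentation settings and was lost when the penalty was doubled to 80.

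**Figure D3:**
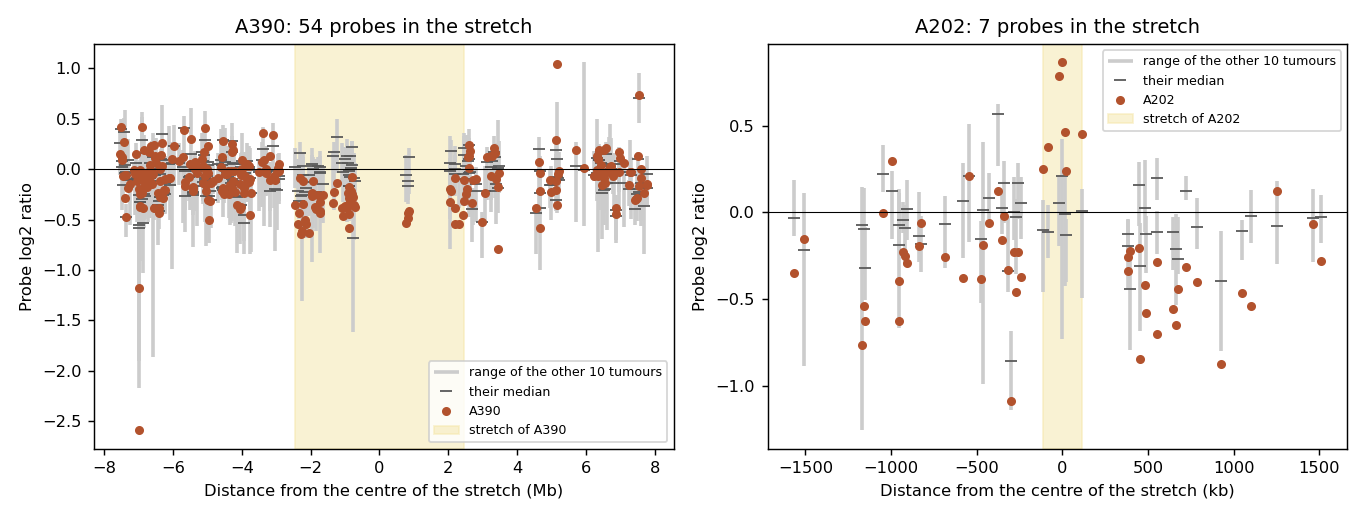
Probe log2 ratios around the dip of A390 (left, Mb from its centre) and the short high stretch of A202 (right, kb from its centre). Brown points are the named tumour, grey bars the range and dashes the median of the other 10 tumours, and shading marks the stretch; all 7 shaded A202 points are above the other tumours, while A390 averages -0.35 in its shaded stretch.

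A292 had 3 breaks and no called segment, with levels that changed in steps. Its mean was -0.062 over the 893 probes up to 86971891, 0.099 over the 374 probes from 90877862 to 115484661, -0.0089 over the 899 probes from 115487984 to 144695671, and -0.19 over the last 260 probes from 144810370 to 155559340. The first step falls across the excluded window around Cdkn2a, the cell cycle inhibitor locus. The 50 probes distal to that window were 0.24 above the 50 proximal to it in A292, against -0.0055 to 0.10 in the other 10 tumours. The raised segment, 24.6 Mb long, holds Jun, a transcription factor of the stress response in Schwann cells, the kinase gene Jak1 and the neuronal RNA-binding gene Elavl2. Measured from its own chromosome median A292 was at 0.13 there, against -0.0089 to 0.055 in the others. The low distal segment holds 142 named genes, among them Chd5, Trp73, Mtor and Kif1b. It was at -0.16 from the chromosome median in A292, against -0.057 to -0.0018 in the other tumours. Its level lay close to the calling threshold, and with another background correction (normexp) the segment covered 270 probes at -0.21, past that threshold. Both segments came back under all 8 segmentation settings.

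B91, B96 and A382 shared a small step near 114.5 Mb, at AK018667. The break fell after position 114490125 in B91 and B96 and after 114518336 in A382. Relative to the proximal side, the distal side was lower by a mean of -0.074 in B91, -0.059 in B96 and -0.055 in A382. The same difference was -0.031 in A292, -0.028 in A390, -0.013 in A394, -0.0029 in B76 and -0.0013 in B86. It was positive in A18 (0.041), 231 Trig (0.019) and A202 (0.059), which share slide 1 with B86. Mean probe GC content was 35.4% on the proximal side and 37.0% on the distal side, and after adjustment for it the steps were -0.064 in B91, -0.053 in B96 and -0.046 in A382. The break near 114.5 Mb was found under 7 of 8 segmentation settings in B96, 6 in B91 and 4 in A382. It was lost in all 3 at a penalty of 80, in A382 and B91 with loess, and in A382 with normexp and with the GC adjustment.

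The A382 passages gave the same chromosome 4 level, with medians of -0.024 at passage 9 and -0.026 at passage 8. Over 2426 probes the difference, passage 9 minus passage 8, had a median of -0.00069 and an SD of 0.089, and 4 probes differed by 0.5 or more. The largest difference of a 5 Mb window was 0.067. Over these probes the passages correlated at r = 0.93. Pairs of mixed tumours ranged from 0.44 to 0.87 and pairs of C57BL/6J tumours from 0.57 to 0.89, over probes that all arrays share, together with the reference DNA.

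Gene by gene, most of chromosome 4 did not differ from the reference by the size asked for. A gene was said to have risen or fallen with an adjusted p under 0.05 by limma, over all 19931 autosomal genes tested, and a mean log2 ratio of at least 0.2 in size. On chromosome 4, 301 of 1191 genes fell and 39 rose, or 25.3% and 3.27%. Over all autosomes 15.4% fell and 18% rose. Without A202, 259 chromosome 4 genes fell and 58 rose, against 15.2% of all genes that fell. The median of the gene means was -0.085 on chromosome 4 and -0.0080 over all autosomal genes. When each probe was replaced by the running median of 5 neighbouring probes, 155 genes fell and 0 rose (7.91% and 13.4% over all autosomes), and 196 of the 301 genes lost their call. Of these 196, 132 stayed below 0 at an adjusted p under 0.05 with a mean short of 0.2 in size, and 64 no longer passed the adjusted p. After each tumour's chromosome median was subtracted, 151 of the 1191 genes fell and 109 rose. No share over all autosomes is given for that setting, so these counts have no background to be read against.

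**Figure D4:**
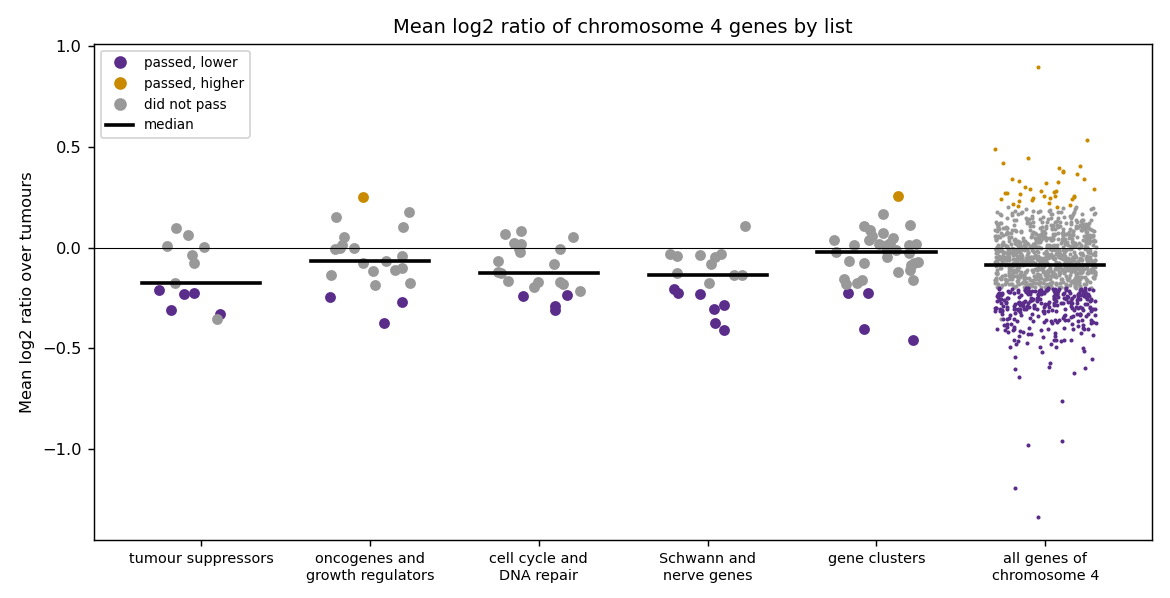
Mean log2 ratio over 11 tumours for the chromosome 4 genes of 5 lists and for all 1191 genes; black bars are medians and colour marks genes that passed limma's test with a mean of at least 0.2 in size. List medians lie between -0.17 for the tumour suppressors and -0.022 for the gene clusters, against -0.085 for all chromosome 4 genes.

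Among 13 measured tumour suppressors and candidates of the distal chromosome, 5 fell, 0 rose and 8 did not pass, with a median of means of -0.17. Over all chromosome 4 genes 25.3% fell and 3.27% rose, and over all autosomes 15.4% fell. Neither this list nor those below were tested as sets against these shares. Sdhb, a subunit of succinate dehydrogenase whose loss is known in human paraganglioma, fell by 0.33 ± 0.085 (SD, n = 11), and it was between -0.51 and -0.25 in every tumour. Errfi1, an inhibitor of the EGF receptor family, fell by 0.31 ± 0.11 (SD, n = 11). Arid1a, a subunit of the SWI/SNF chromatin remodelling complex, the ubiquitin ligase gene Ube4b and Kif1b also fell, by 0.23, 0.23 and 0.21. Arid1a without A202 and Kif1b without A292 fell just short of the size minimum, at -0.1995 and -0.1994, and Kif1b also did so under both other centrings, at -0.18. Arid1a fell short of it under 6 of 24 alternatives in all, among them the running median (-0.19). It read -0.49 in A202 and -0.47 in A18, both on slide 1, and -0.23 to -0.096 in the other tumours. Errfi1 and Kif1b kept their call with the running median, while Sdhb read -0.088 (limma adjusted p = 0.113) in that measure. Chd5, a chromatin remodeller with 6 probes, averaged -0.077, and Cdkn2c, an inhibitor of cyclin-dependent kinases, averaged 0.0095 with 1 probe. Neither passed.

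Of 21 oncogenes and growth regulators, 3 fell, 1 rose and 17 did not pass, with a median of -0.068. The shares over chromosome 4 were 25.3% fallen and 3.27% risen. Ski, a repressor of TGF-β signalling, fell by 0.37 ± 0.17 (SD, n = 11), and Ror1, a receptor tyrosine kinase, by 0.25. Tal1, a transcription factor of blood stem cells, rose by 0.25 ± 0.11 (SD, n = 11) and was above 0 in every tumour but A202. None of these 3 kept its call with the running median. Plag1, a zinc finger transcription factor, fell by 0.27 ± 0.40 (SD, n = 11), but that value rests on A18. There its 2 probes averaged -1.37, against -0.66 in A202 and -0.15 to -0.045 in the other 9 tumours, the lower A18 probe was not above background in the tumour channel, and without A18 the gene did not pass.

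Of 22 cell cycle and DNA repair genes, 4 fell, 0 rose and 18 did not pass, with a median of -0.13. On chromosome 4 as a whole 25.3% of genes fell. Rpa2, a subunit of the single-strand DNA binding protein of replication, fell by 0.31 ± 0.083 (SD, n = 11). Xpa, which recognises damage in nucleotide excision repair, fell by 0.29, Orc1 of the origin recognition complex by 0.24, and Mad2l2 of translesion synthesis by 0.24. Rpa2, Xpa and Mad2l2 had 1 probe each, and Orc1 had 2. Of the 4, Orc1 alone kept its call with the running median, though not without A202. Ccnc, the cyclin of the Mediator kinase, averaged -0.22 and did not pass; in A202 it read -1.38, with 1 probe not above background.

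Of 18 Schwann cell and nerve genes, 7 fell, 0 rose and 11 did not pass, with a median of -0.14. The share that fell among all chromosome 4 genes was 25.3%. Astn2, a neuronal adhesion gene, fell by 0.41 ± 0.11 (SD, n = 11), and Lpar1, a lysophosphatidic acid receptor of myelinating glia, by 0.37 ± 0.098 (SD, n = 11). Cntfr, the receptor for ciliary neurotrophic factor, fell by 0.30, and Artn, a ligand of the GDNF family, by 0.23. Cntfr and Artn, with 1 probe each, kept their call with the running median. Artn lost its call without A202. It was above 0 in A292 (0.13), A382 (0.10) and B96 (0.038) and below 0 in the other 8 tumours. Id3, an inhibitor of basic helix-loop-helix factors, fell by 0.28 ± 0.32 (SD, n = 11) with 1 probe. It was lower in the C57BL/6J tumours, between -0.89 and -0.48, than in the mixed tumours, between -0.35 and 0.16.

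Of 38 measured genes of clusters with several members, 4 fell, 1 rose and 33 did not pass, with a median of -0.022. These included olfactory receptor, Cyp2j and Cyp4, Pramel and zinc finger genes, where a probe may also match a paralogue. Over chromosome 4 as a whole 25.3% of genes fell and 3.27% rose, against 15.4% and 18% over all autosomes. Zfp593 fell by 0.46 and Pramel27 by 0.41, while Pramel1 rose by 0.26, each with 1 probe. Neighbouring probes did not share the Zfp593 value, which was 0.045 with the running median.

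Among genes that passed limma's test and whose sign agreed in 9 or more tumours, the largest mean shifts belonged to genes with 1 to 3 probes. The lowest were Slc2a7, a glucose transporter gene, at -1.34 ± 0.44, Dhdds, an enzyme of dolichol synthesis, at -1.19 ± 0.10, Rnf186, a ubiquitin ligase gene, at -0.98 ± 0.48, the cDNA AK089562 at -0.96 ± 0.32, and Rusc2 at -0.76 ± 0.44 (SD, n = 11 each). The highest were the cDNA AK136342 at 0.90 ± 0.18, the transcription factor gene Klf17 at 0.53 ± 0.19, Disp3 at 0.49 ± 0.17, AK014503 at 0.44 ± 0.18 and BC146315 at 0.42 ± 0.14 (SD, n = 11 each). Passing limma's test was a condition for naming these 10, and of them Rusc2 alone kept its call with the running median, at -0.39. Dhdds was at -0.19 there (limma adjusted p = 0.00432), short of the size minimum, and the other 8 lay between -0.043 and 0.15 and did not pass. Dhdds shows how local this was. Its low probe, printed above, read -2.45 to -2.04 in all 11 tumours, whereas its neighbour, starting 10068 bases proximal, read -0.22 to 0.14.

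Single probes that stood apart fell into recurrent and lone ones. A probe was counted when its ratio was at least 1 below the running median of 11 probes. Of 30 such probes, 1 (Dhdds) was low in all 11 tumours and 16 were low in 1 tumour. All 16 lone ones were in tumours hybridised on slide 1, which holds 4 of the 12 arrays, as were 83.2% of the lone ones on all autosomes. By tumour the count of low probes was 13 in A202, 11 in 231 Trig, 5 in A18 and 14 in B86 on slide 1, and 2 to 7 in each of the other 7 tumours. Of the 79 low values, 4 were not above background in the tumour channel. Among probes low in at least 3 tumours of a background and in none of the other, 3 belonged to the mixed background and 0 to C57BL/6J. The rule asked for 3 of 7 mixed tumours but 3 of 4 C57BL/6J tumours, so these counts are not on equal terms. The 3 mixed ones were probes of Mob3b, Rusc2 and Trp73, which, like the AK202125 probe below, were singled out after their values were seen. Over all autosomes 1.31% of probes were low in some tumour, 0.702% in a single one, 0.147% in 3 or more mixed tumours only and 0.0147% in 3 or more C57BL/6J tumours only. Chromosome 4, with 1.24%, 0.66% and 0.12% in the first 3 of these, was near that background.

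Mob3b, a kinase activator gene, and Rusc2, a gene of vesicle transport, shared a pattern. The low Mob3b probe read -0.998 in A18, -2.65 in 231 Trig, -2.41 in A202 and -2.77 in A390, and 0.088 in A292, 0.16 in A382 and -0.023 in A394. In the C57BL/6J tumours it read -0.40 in B86, 0.29 in B91, 0.080 in B96 and -0.043 in B76. Its neighbour, printed above and 489 bases proximal, was above 0 in every tumour. The first Rusc2 probe read -0.81 in A18, -2.03 in 231 Trig, -2.17 in A202 and -2.59 in A390, and -0.48, -0.57 and -0.53 in A292, A382 and A394. The C57BL/6J tumours lay between -0.67 and -0.43. The last Rusc2 probe was also lowest in 231 Trig (-1.91), A202 (-1.76), A390 (-1.18) and A18 (-1.11), but B86 was close to them at -1.06. The middle Rusc2 probe, printed above, stayed between -0.46 and -0.20 in all mixed tumours, and between -0.79 (B86) and -0.18 in the C57BL/6J tumours. So 231 Trig, A202 and A390 were low at both genes, A18 partly so, and A292, A382 and A394 read like B91, B96 and B76. The C57BL/6J tumour B86 was below B91, B96 and B76 at these probes, except at the first Rusc2 probe. An unnamed probe starting at 32180840 read -1.52 in A202, -1.21 in 231 Trig, -0.97 in A390, -0.75 in B86 and -0.58 in A18. The other tumours lay between -0.26 and -0.040 there. A390 was hybridised on slide 2 and the other low tumours on slide 1.

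Near the distal end, the Trp73 probe and the last AK202125 probe divided the mixed tumours another way. Trp73 encodes p73, a relative of p53 with roles in cell death and neural development. Its probe read -1.61 in A18, -1.40 in 231 Trig and -1.72 in A202, then -0.054 in A390, -0.22 in A292 and -0.37 in A382, and 0.42 in A394. The C57BL/6J tumours read 0.34 in B86, 0.32 in B91, 0.18 in B96 and 0.20 in B76. The AK202125 probe read -1.26 in A18, -1.39 in 231 Trig and -1.76 in A202, 0.58 in A390, 0.24 in A292 and 0.18 in A382, and 1.20 in A394. The C57BL/6J tumours read 1.34 in B86, 0.86 in B91, 1.11 in B96 and 1.12 in B76. At both probes A394 lay with or above most C57BL/6J tumours, A390, A292 and A382 lay between, and A18, 231 Trig and A202 were lowest. Those 3 share slide 1 with B86, which was the highest tumour at AK202125. The files give the name AK202125 to 6 probes that start between 154610374 and 155213582, and whether they belong to 1 transcript was not checked. Of the other 5, the one starting at 154843945 was also lowest in A18 (-0.51), A202 (-0.48) and 231 Trig (-0.45), against -0.16 to -0.016 in the other 8 tumours. The nearest, starting at 155186286, was between -0.12 and 0.31 and did not single out those 3. An unnamed probe starting at 6381545 set the same 3 apart upwards. It read -0.11 in A18, 0.20 in 231 Trig and -0.45 in A202, against -2.18 to -0.78 in the others. At an unnamed probe starting at 125670810, A18, 231 Trig, A202 and B86 were highest, at -0.42 to -0.19, against -1.95 to -0.53. Over genes, the Trp73 difference, mixed minus C57BL/6J, was -0.96 (limma adjusted p = 0.484).

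**Figure D5:**
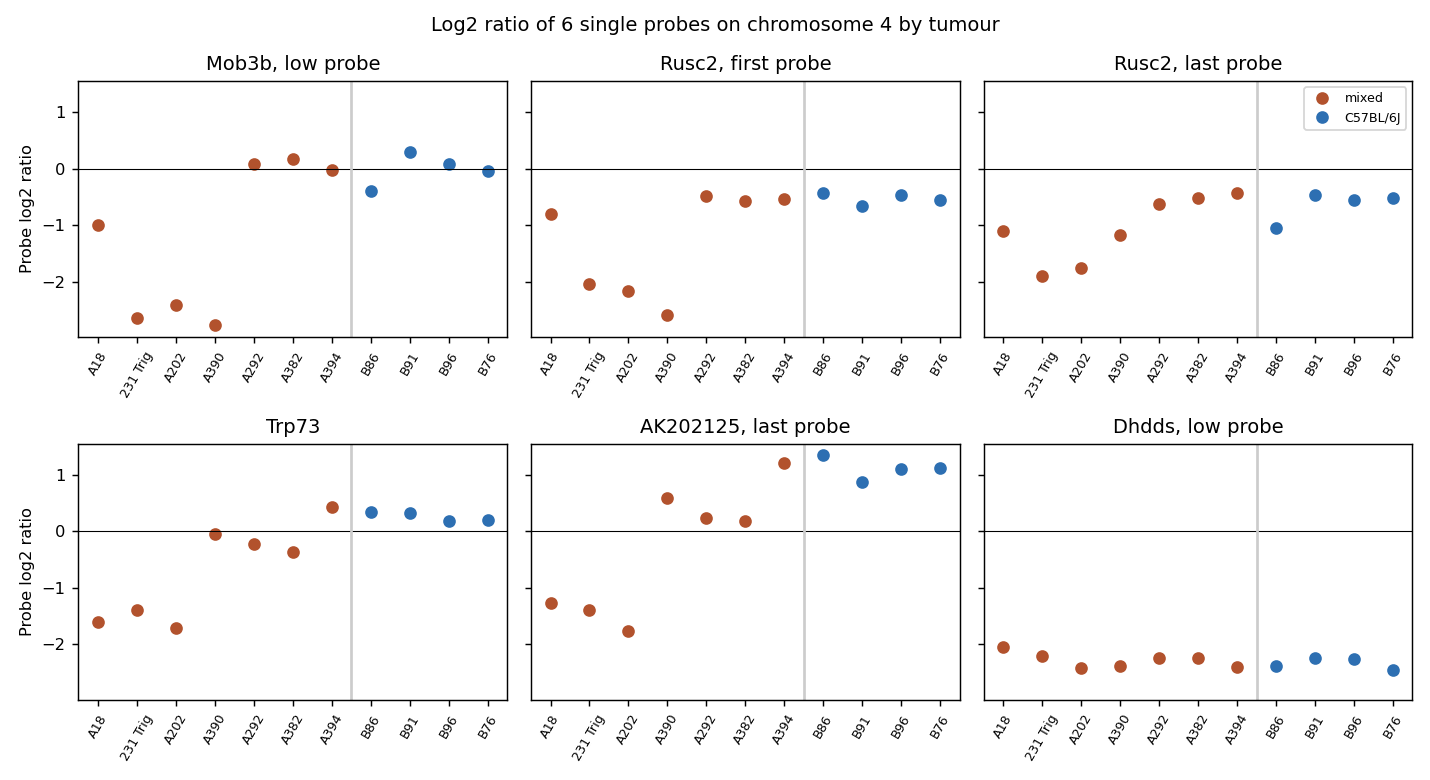
Log2 ratio of 6 single probes in each tumour, with the 7 mixed tumours left of the 4 C57BL/6J tumours. The Mob3b probe and the first Rusc2 probe are low in 231 Trig, A202 and A390. The last Rusc2 probe is lowest in 231 Trig and A202, with A390 (-1.18), A18 (-1.11) and B86 (-1.06) close together. The Trp73 and AK202125 probes are low in A18, 231 Trig and A202, and the Dhdds probe lies between -2.45 and -2.04 in all tumours.

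No chromosome 4 gene passed the comparison of strain backgrounds by limma (0 of 1191), and 4 of 19931 genes passed over all autosomes (0.0201%, of which 0.0151% higher and 0.00502% lower in mixed tumours). On chromosome 4, 16 of 1191 genes had an unadjusted limma p under 0.05, fewer than the share of 0.05 that such a threshold passes by chance on average. The difference was 0.53 for Id3 (adjusted p = 0.161) and 0.75 for Rnf186 (adjusted p = 0.186), both higher in the mixed tumours and both singled out after their values were seen.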

How the data were processed

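Scanner output of 12 2-colour arrays was analysed. The deposited ratio is log10 of tumour over reference signal, and each channel's intensity was background-subtracted, detrended and linearly dye-normalised by the authors' software, per the file headers. Agilent Feature Extraction 9.5 and build mm9 are given in the submitters' processing notes. Ratios were converted to log2, control spots and outlier flags were left out, and each array was centred on its autosomal median. Gene names came from the files, updated through RefSeq accessions, of which 28820 of 29337 matched. Gene means (values in at least 8 of 11 tumours) and medians of 5 Mb windows were fitted with limma 3.58.1 in R 4.3.3 over all autosomes, with Benjamini-Hochberg adjustment, and chromosome medians were compared by exact permutation tests. Segmentation used a penalty of 40 noise variances per break, at least 5 probes per segment, and isolated probes held within 3 noise SD of a running median over 5 probes. The steps were tested on simulated data, with Python 3.11.15, numpy 2.4.6, pandas 2.3.3, scipy 1.17.1 and matplotlib 3.10.9.

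The alternatives were other centrings, normexp background, loess, running medians, GC adjustment, slide as a block, other window sizes, penalties and thresholds, and leaving out tumours or slide 1. Genes named were up to 6 per list by size of mean, plus list members named whatever their value, the 5 highest and 5 lowest passing means whose sign agreed in 9 or more of 11 tumours, and up to 3 at each break or stretch. Members, comparison chromosomes, lists, stretches and single probes were chosen with earlier results of these data known. The labels name separate tumours without naming the mice, so p-values measure the spread between these samples. The spread of the reference is not in the tests.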

Additional observations from a re-analysis of the deposited data

Results flagged for a closer look

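Groups of 4 and of 7 tumours, 38 sets of values in all, were searched for a value far from the others of its group, relative to the group's range. Chance flags about 1 in 20 groups, and the tumours named here (A202, A18 and B86) were all hybridised on slide 1. Among the mixed tumours, the chromosome 4 median of A202 was -0.33, with the nearest tumour at -0.088. The same tumour stood apart in the difference from chromosome 18, at -0.31, with the nearest at 0.053, and in the difference from chromosome 2, at -0.43, with the nearest at -0.13. Both differences contain that chromosome 4 median, so they are not separate from it. Over the 7 probes from 98831985 to 99056193, A202 read 0.49, with the nearest mixed tumour at 0.081. That stretch was delimited because A202 was high there, so this value restates its selection and the chance rate does not apply to it. A18 stood apart in the difference from chromosome 13, at 0.13, with the nearest at 0.048. Among the C57BL/6J tumours, B86 read -0.76 for Rusc2, with the nearest at -0.45. Rusc2 was named for its low mean in these data, so the chance rate may not hold for it.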

How the results depend on the processing

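The chromosome 4 median kept its sign and side of the threshold under 20 of 21 alternatives. With the C57BL/6J tumours only it was -0.078 and could not pass, since 4 tumours allow no p under 0.125, and the difference from chromosome 13 was 0.025 there for the same reason. Leaving out each tumour gave -0.091 to -0.060 for the median, 0.011 to 0.023 for proximal minus distal, 0.027 to 0.041 for the difference from chromosome 13, 0.046 to 0.096 from chromosome 18, -0.037 to 0.013 from chromosome 2, and -0.021 to 0.030 for mixed minus C57BL/6J. The last turned sign with normexp (0.00037), without slide 1 (0.038) and without A202 (0.030). The chromosome 2 difference turned sign without slide 1 (0.0069), without A202 (0.013) and in C57BL/6J tumours only (0.017). Without slide 1, proximal minus distal (0.040) and the chromosome 18 difference (0.10) passed, and the chromosome 18 difference also passed without A202 (0.096).

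Genes that fell numbered 155 with the running median, 155 with at least 2 probes, 151 with the chromosome level subtracted and 539 with no minimum on the mean. Those that rose numbered 0, 8, 109 and 115 in the same settings, and 61 without slide 1. Leaving out each tumour gave 259 to 317 that fell and 37 to 58 that rose. Of all calls 88.5% were lower, 100% with the running median and 58.1% with the chromosome level subtracted. Centring on the mode moved the median of all genes by 0.028, and centring without chromosome 11 by 0.025. Lower windows numbered 1 with mode centring, 1 without chromosome 11, 4 without slide 1, 5 in C57BL/6J tumours only, 3 of 10 Mb, 21 of 2 Mb, and 1 to 13 without each tumour. Breaks numbered 5 with a penalty of 80. Trp73 turned sign with the running median (0.067), in C57BL/6J tumours only (0.26) and without slide 1 (0.068), and Zfp593 with the running median (0.045). The cause of these changes was not tested. No paired analysis was possible because the tumours of the strain backgrounds share no replicate label that pairs them.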
